A study of Mus musculus with 4 samples.

Results

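The aminoacyl-tRNA synthetases are the enzymes that join each amino acid to its transfer RNA. A fixed list of 36 mouse genes was described, 20 for cytosolic enzymes and 16 for mitochondrial enzymes (those whose symbols end in 2), out of 24421 gene symbols in the table. All 36 were found by symbol, and all 36 passed the filter of a mean of at least 1 FPKM (fragment counts scaled to transcript length and library size) over the 4 libraries. The list names the members by gene symbol, and no measured value enters the rule. The members and the related lists were nevertheless chosen with earlier results of these data known.

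Liver RNA came from hepatectomized mice of a pair of groups. The gelADSC group (2 libraries) had received ADSC, the usual abbreviation for adipose-derived stem cells, carried in a fibrin gel. The control group (2 libraries) had received the gel without cells. Hepatectomy and fibrin gel were therefore shared by both groups. The sources used here do not give strain, sex, age, time after surgery or the origin of the ADSC, nor whether the libraries of a group came from separate animals, so that p-values measure only the spread between these libraries, which may be technical.

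Each synthetase recognises its amino acid and the matching transfer RNAs, and some also hydrolyse wrongly charged products. Class I and class II enzymes have unrelated catalytic folds. In the cytosol of animal cells several of them are held with the scaffold proteins AIMP1, AIMP2 and EEF1E1 in a multi-synthetase complex, while mitochondria use a mostly separate, nuclear-encoded set that serves the few proteins made inside the organelle. Glycyl- and lysyl-tRNA synthetase serve both compartments from a single gene each, and Eprs encodes a fused enzyme for glutamate and proline. In mouse cells short of amino acids, the transcription factor ATF4 raises many of the cytosolic synthetase genes through elements in their promoters.

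Promoter windows from RefSeq (build GRCm38.p6, 250 bases before to 50 after the start of the gene, 300 in all) were matched by symbol for 26 members, 12 cytosolic and 14 mitochondrial. No window was used for Cars, Hars, Hars2, Lars, Mars, Nars, Pars2, Rars, Vars and Wars. The letters TGATGNAA, the core of the C/EBP-ATF response element that ATF4 is known to bind, were searched on both strands. They were in the windows of 5 cytosolic members (Aars, Gars, Iars, Tars and Yars) and 0 mitochondrial members, and in 3.97% of all 32851 windows. The E-box letters CACGTG were in 4 cytosolic windows (Aars, Farsb, Iars and Tars) and 1 mitochondrial window (Ears2), against 7.15% of all windows. Of 4 other motifs, TGACGTCA was in 0 members (1.79% of all windows), CCGGAAG in 8 (8.86%), GGAAGTG in 4 (11.0%) and ATTGG in 12 (37.4%). CCGGAAG and GGAAGTG can overlap in their letters. A match describes the sequence and is not evidence of a bound site. The 5 windows with TGATGNAA are shown because they belong both to genes that passed the test below and to genes that did not, and capitals mark the matched letters on either strand. They lie at chr6:55037751-55038050 on the plus strand (Gars), chr13:49681880-49682179 on the plus strand (Iars), chr4:129189653-129189952 on the plus strand (Yars), chr15:11399609-11399908 on the minus strand (Tars) and chr8:111033592-111033891 on the plus strand (Aars).
Gars: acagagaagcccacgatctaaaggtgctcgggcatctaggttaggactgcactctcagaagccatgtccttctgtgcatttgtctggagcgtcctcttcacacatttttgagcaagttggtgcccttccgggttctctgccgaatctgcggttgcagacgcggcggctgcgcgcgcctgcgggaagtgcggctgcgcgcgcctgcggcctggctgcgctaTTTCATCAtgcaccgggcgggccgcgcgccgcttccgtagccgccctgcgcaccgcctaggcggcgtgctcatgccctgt
Iars: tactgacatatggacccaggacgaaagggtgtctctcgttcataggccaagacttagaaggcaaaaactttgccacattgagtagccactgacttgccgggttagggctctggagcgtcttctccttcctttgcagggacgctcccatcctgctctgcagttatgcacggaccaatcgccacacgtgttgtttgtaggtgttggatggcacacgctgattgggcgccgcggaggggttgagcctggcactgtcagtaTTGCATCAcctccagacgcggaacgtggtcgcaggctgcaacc
Yars: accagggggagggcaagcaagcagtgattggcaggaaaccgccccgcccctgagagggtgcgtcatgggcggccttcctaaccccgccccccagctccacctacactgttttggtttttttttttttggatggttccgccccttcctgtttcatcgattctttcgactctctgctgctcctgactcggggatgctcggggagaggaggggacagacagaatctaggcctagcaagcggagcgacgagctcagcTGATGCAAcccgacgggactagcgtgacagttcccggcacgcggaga
Tars: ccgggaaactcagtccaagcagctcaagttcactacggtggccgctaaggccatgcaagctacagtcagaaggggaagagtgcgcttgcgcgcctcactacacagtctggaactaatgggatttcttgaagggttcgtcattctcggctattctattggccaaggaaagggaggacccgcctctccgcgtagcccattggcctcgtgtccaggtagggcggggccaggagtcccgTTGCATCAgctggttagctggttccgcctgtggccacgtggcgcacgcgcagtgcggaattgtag
Aars: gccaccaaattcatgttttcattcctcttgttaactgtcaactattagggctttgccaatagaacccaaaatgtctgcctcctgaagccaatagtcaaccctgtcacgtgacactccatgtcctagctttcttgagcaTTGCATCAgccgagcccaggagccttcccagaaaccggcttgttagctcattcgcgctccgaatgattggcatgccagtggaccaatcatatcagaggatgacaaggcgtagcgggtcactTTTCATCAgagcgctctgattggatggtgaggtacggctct
Counted from the gene's start, with negative positions before it, the match spanned positions -30 to -23 in Gars, -15 to -8 in Tars, 8 to 15 in Iars and 4 to 11 in Yars. Aars held a pair of matches, at positions -112 to -105 and 10 to 17.

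Read from the smallest steps of low values, and so only a rough estimate, the libraries held 18107212 to 24400843 reads, and a single read in a 2 kb transcript was worth 0.0205 to 0.0276 FPKM. Across the 11070 tested genes the median log2 change, gelADSC minus control, was -0.25, and 17.5% of genes were called lower and 6.92% higher at an adjusted p under 0.05 (limma on log2(FPKM + 1), Benjamini-Hochberg adjustment over all tested genes). In numbers, 766 were higher and 1936 lower as deposited, and 952 higher and 932 lower after median ratio scaling, which sets the shift of all genes near 0. Markers of liver cell types were checked by their summed FPKM. Those of hepatocytes summed to 33753 and 52790 in gelADSC and 42677 and 48346 in control, with 1 of 6 genes called higher (Serpina1c). Most of that sum was Alb, which overlapped between groups, as did Hnf4a. Without being called, Ttr (log2 change 0.69) and Cps1 (0.91) were higher without overlap and Apoa1 (-0.70) lower. Markers of Kupffer cells summed to 225 and 190 in gelADSC and 175 and 209 in control, with none of the 7 called. Among them Cd5l (log2 change 0.60) and Adgre1 (0.97) were higher without overlap, Vsig4 (-0.61) was lower without overlap, and the rest overlapped. Markers of sinusoidal endothelium summed to 90.4 and 86.8 in gelADSC and 84.0 and 77.8 in control. This sum holds calls in opposite directions, with Stab2 (log2 change 0.75) and Kdr (0.99) higher and Lyve1 (-1.42) lower. Cholangiocyte markers (5 genes) summed to 5.59 and 5.97 in gelADSC and 20.3 and 13.1 in control. Sox9 alone was called lower among them, with 2.02 and 1.52 FPKM in gelADSC and 11.8 and 9.48 FPKM in control, while Krt7, Epcam and Cftr overlapped between groups and Krt19 was not called. Monocyte and neutrophil markers summed to 76.2 and 25.2 in gelADSC and 69.7 and 65.5 in control, with none of the 5 present called. Among them Ly6c2 (log2 change -0.64), Ccr2 (-0.61) and S100a8 (-0.92) were lower without overlap. S100a9 and Itgam overlapped, and Ly6g had no value. Stellate cell and fibroblast markers summed to 119 and 98.4 in gelADSC and 143 and 67.7 in control, with 2 of 6 stellate cell genes called higher (Lrat and Reln). Adipocyte markers summed to 4.33 and 0.107 in gelADSC and 6.65 and 1.07 in control. Lymphocyte markers summed to 1.36 and 2.29 in gelADSC and 0.180 and 0.144 in control. All 6 were under 1 FPKM on average and so not tested, and all 6 were higher in both gelADSC libraries than in both controls. Of 4 erythroid markers the globin genes Hba-a1 and Hbb-bt were listed at 0 in all libraries while Alas2 read 40.1 and 38.9 FPKM in gelADSC and 11.0 and 9.99 FPKM in control. The part of cell composition in the values below was not tested, and in bulk liver fewer cells of a type and less RNA per cell cannot be told apart.

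Cytosolic synthetase transcripts were mostly lower in gelADSC livers, with only a few differences past the test. Of 20 genes 4 fell (Gars, Iars, Rars and Sars, 20.0%, against 17.5% of all tested genes called lower) and 0 rose. That share is near the background. At an unadjusted limma p under 0.05, 13 were lower and 0 higher, against 29.5% and 10.4% of all tested genes. Both gelADSC libraries read below both control libraries for 15 of the 20 (75.0%, against 50.5% of all tested genes) and above them for 2, against 19.2%, so that 17 were without overlap, against 69.8% of all tested genes. The median log2 change was -0.61, or -0.36 after subtracting that of all tested genes. The 20 genes together summed to 460 and 515 FPKM in gelADSC, 0.0888% and 0.104% of the summed values of those libraries, and to 769 and 585 FPKM in control, 0.150% and 0.114%. Control library 1 gave the highest value for 18 of the 20 genes and gelADSC library 2 the lowest for 14. Over all 11070 tested genes these counts were 6542 and 5322. Without control library 1 the log2 changes were nearer 0, at -1.21 for Gars, -0.57 for Iars, -0.55 for Rars and -0.56 for Sars. Without gelADSC library 2 they were -0.73 for Iars, -0.74 for Rars and -0.84 for Sars. Leaving out either of these libraries gave fewer genes called lower, among the cytosolic synthetases as over all tested genes.

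**Figure D1:**
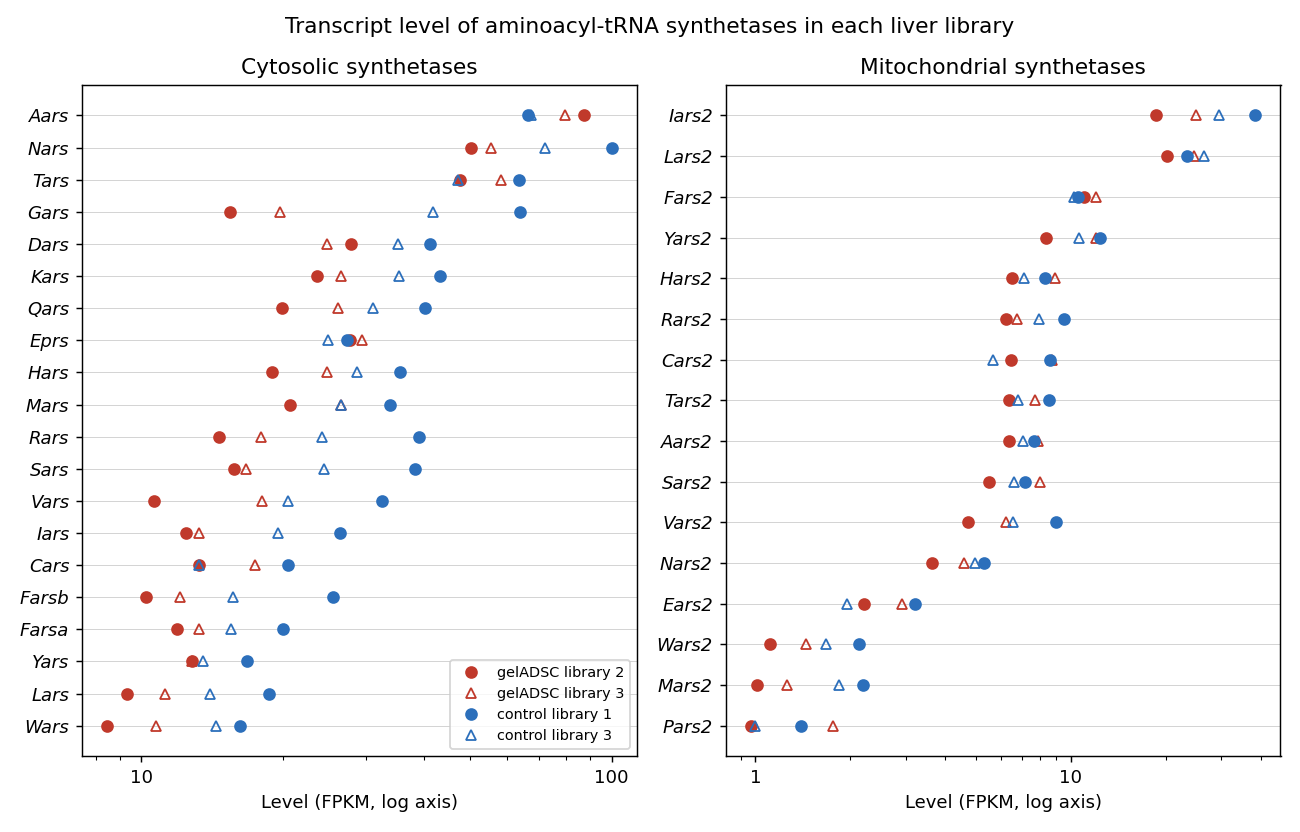
Level of each synthetase in each library (FPKM, log axis), with cytosolic enzymes in the left panel and mitochondrial enzymes in the right panel, ordered by their mean. Red marks are the gelADSC libraries and blue marks the control libraries. Gars shows the widest gap between groups, with 15.5 and 19.7 FPKM in gelADSC and 63.8 and 41.7 FPKM in control.

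The largest difference was in Gars, which encodes glycyl-tRNA synthetase for both cytosol and mitochondria. It read 15.5 and 19.7 FPKM in gelADSC and 63.8 and 41.7 FPKM in control. The groups lay far apart. Its mean fell to 17.6 ± 2.98 FPKM in gelADSC, against 52.7 ± 15.6 FPKM in control (SD, n = 2 each), a ratio of 0.333 and a log2 change of -1.51 (SE 0.25, limma adjusted p = 0.00403). Without control library 1 the log2 change of Gars was -1.21 and its adjusted p 0.0551, and it kept its call in the other 9 of 10 alternative settings.

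Sars, seryl-tRNA synthetase, read 15.8 and 16.7 FPKM in gelADSC and 38.3 and 24.4 FPKM in control. The gelADSC libraries were close to each other and the control libraries were not. Sars fell with a log2 change of -0.87 (SE 0.24, adjusted p = 0.031). Rars, arginyl-tRNA synthetase of the complex, read 14.7 and 18.00 FPKM in gelADSC and 38.9 and 24.2 FPKM in control, and fell with a log2 change of -0.88 (SE 0.25, adjusted p = 0.0367). Iars, isoleucyl-tRNA synthetase, which edits mischarged valine, read 12.5 and 13.3 FPKM in gelADSC and 26.5 and 19.5 FPKM in control, and fell with a log2 change of -0.78 (SE 0.21, adjusted p = 0.0307). In all 3 genes control library 1 stood above control library 3. Without control library 1 the adjusted p was 0.162 for Sars, 0.206 for Rars and 0.162 for Iars, and without gelADSC library 2 it was 0.0577 for Sars, 0.104 for Rars and 0.117 for Iars. Without gelADSC library 3 the call of Iars was also lost (0.0637). Scaling the libraries by median ratios, which removes the shift of all genes, left Gars called and gave 0.0749 for Sars, 0.0882 for Rars and 0.0568 for Iars.

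The other members of the multi-synthetase complex did not pass the test. Kars, lysyl-tRNA synthetase, read 23.6 and 26.6 FPKM in gelADSC and 43.2 and 35.4 FPKM in control (log2 change -0.62, 95% interval -1.07 to -0.17, adjusted p = 0.0509). Dars, aspartyl-tRNA synthetase, read 27.9 and 24.9 FPKM in gelADSC and 41.2 and 35.2 FPKM in control (adjusted p = 0.0808). For both genes every gelADSC value lay below every control value. Qars, glutaminyl-tRNA synthetase, read 20.0 and 26.2 FPKM in gelADSC and 40.0 and 31.1 FPKM in control (adjusted p = 0.0761). Lars, leucyl-tRNA synthetase, which also acts as a leucine sensor upstream of mTORC1 in human cells, read 9.31 and 11.3 FPKM in gelADSC and 18.7 and 14.0 FPKM in control (adjusted p = 0.0711). These also did not overlap. Mars, methionyl-tRNA synthetase, read 20.7 and 26.7 FPKM in gelADSC and 33.8 and 26.6 FPKM in control, and gelADSC library 3 was level with control library 3 (log2 change -0.34, 95% interval -0.83 to 0.15). Eprs, the enzyme for glutamate and proline, stood apart from the rest of the complex with 27.8 and 29.5 FPKM in gelADSC and 27.3 and 24.9 FPKM in control. Its gelADSC values were slightly above both control values (log2 change 0.13, 95% interval -0.29 to 0.55, adjusted p = 0.629). Over the 8 enzymes of the complex the median log2 change was -0.61 with 2 called lower (25.0%), and over the 12 outside it the median was -0.58 with 2 called lower (16.7%), both near the 17.5% of all tested genes.

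Outside the complex, most of the remaining enzymes had lower values that missed the threshold. Nars, asparaginyl-tRNA synthetase, read 50.2 and 55.3 FPKM in gelADSC and 100.1 and 72.1 FPKM in control (log2 change -0.68, adjusted p = 0.0513). Wars, the tryptophanyl enzyme, which interferon gamma raises in human cells, read 8.47 and 10.7 FPKM in gelADSC and 16.3 and 14.4 FPKM in control (log2 change -0.63, adjusted p = 0.0553). Neither gene had overlapping groups. Vars, valyl-tRNA synthetase, read 10.6 and 18.1 FPKM in gelADSC and 32.5 and 20.5 FPKM in control (log2 change -0.85, adjusted p = 0.068). The gelADSC libraries of Vars differed from each other by 0.71 on the log2 scale, the widest gap between them among the cytosolic genes. Hars, histidyl-tRNA synthetase, read 19.0 and 24.8 FPKM in gelADSC and 35.5 and 28.7 FPKM in control (log2 change -0.54, adjusted p = 0.0984). Yars, tyrosyl-tRNA synthetase, read 12.8 FPKM in both gelADSC libraries and 16.8 and 13.5 FPKM in control (log2 change -0.22, adjusted p = 0.441). Both gelADSC values lay below both controls, and control library 3 differed from control library 1 by -0.29 on the log2 scale.

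Phenylalanyl-tRNA synthetase is built from equal numbers of the subunits encoded by Farsa and Farsb. Farsa read 11.9 and 13.2 FPKM in gelADSC and 20.0 and 15.5 FPKM in control (log2 change -0.46, adjusted p = 0.134). Farsb, the subunit with the editing site, read 10.2 and 12.1 FPKM in gelADSC and 25.6 and 15.7 FPKM in control (log2 change -0.79, adjusted p = 0.0518). The ratio of Farsa to Farsb was 1.17 and 1.09 in gelADSC and 0.784 and 0.989 in control, so the transcripts of the subunits stayed close to each other in all libraries, with Farsb the higher in control and Farsa the higher in gelADSC. Some of these genes were called lower when a library was left out. Without control library 3 the adjusted p was 0.0312 for Farsb and 0.0394 for Nars, and without gelADSC library 3 it was 0.0383 for Farsb and 0.00283 for Vars.

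A small number of cytosolic enzymes did not share the lower values. Aars, alanyl-tRNA synthetase, which edits mischarged serine and glycine, was the most abundant member per length, with a mean of 75.3 FPKM over the libraries. It read 87.6 and 79.7 FPKM in gelADSC and 66.6 and 67.4 FPKM in control. Both gelADSC values lay above both controls, the reverse of the order in 15 other cytosolic genes, but the difference did not pass the test (log2 change 0.31, 95% interval -0.10 to 0.73, adjusted p = 0.23). Tars, threonyl-tRNA synthetase, read 47.5 and 58.1 FPKM in gelADSC and 63.6 and 47.1 FPKM in control, with overlapping groups (log2 change -0.06, 95% interval -0.56 to 0.44). Cars, cysteinyl-tRNA synthetase, read 13.3 and 17.5 FPKM in gelADSC and 20.5 and 13.3 FPKM in control, also overlapping (log2 change -0.11, 95% interval -0.68 to 0.46). The genes next below Aars in mean level were Nars (69.4 FPKM), Tars (54.1 FPKM) and Gars (35.2 FPKM), and Wars was the lowest with 12.5 FPKM.

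**Figure D2:**
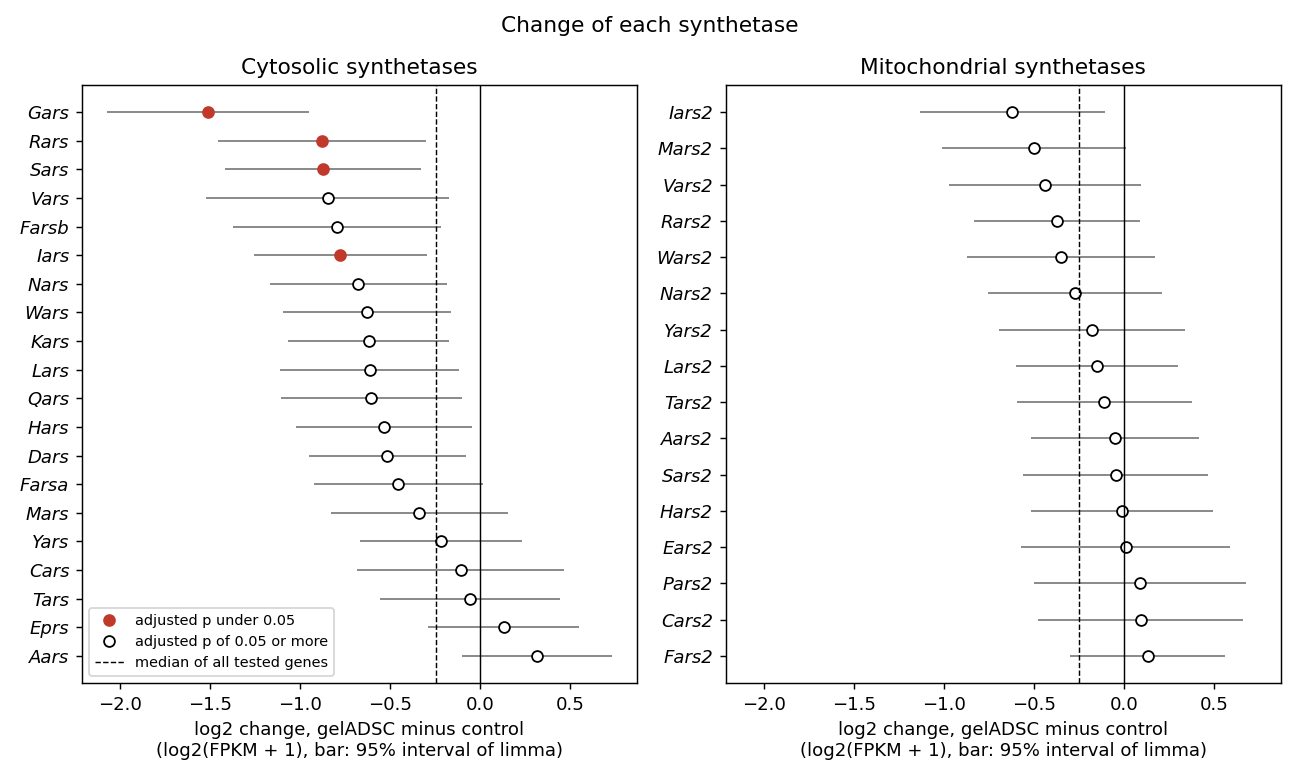
Log2 change of each synthetase, gelADSC minus control, on the log2(FPKM + 1) scale, with cytosolic enzymes in the left panel and mitochondrial enzymes in the right panel. Bars are 95% intervals from limma, filled points have an adjusted p under 0.05, and the dashed line is the median of all tested genes at -0.25. The 4 filled points are Gars, Rars, Sars and Iars, and Aars lies farthest to the right among the cytosolic enzymes at 0.31.

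The cytosolic genes known as ATF4 targets in mouse cells (Aars, Cars, Eprs, Gars, Iars, Lars, Mars, Nars, Sars, Tars, Wars and Yars) included both the largest decrease and the genes that were not lower. Of these 12, 3 fell (Gars, Iars and Sars, 25.0%, against 17.5% of all tested genes), with a median log2 change of -0.48. Of the same 12, 7 were lower without overlap (58.3%, against 50.5%) and 2 higher without overlap (against 19.2%). Of the other 8 cytosolic genes 1 fell (Rars, 12.5%, against the same 17.5%), all 8 were lower without overlap (against the same 50.5%), and the median was -0.61. Among the 5 genes with TGATGNAA in the promoter window printed above, Gars and Iars fell while Yars, Tars and Aars had log2 changes of -0.22, -0.06 and 0.31. Class I enzymes (9 genes) had a median of -0.61 and class II enzymes (10 genes, with Eprs in neither count) a median of -0.58. After subtracting the median of all tested genes, the ATF4 targets stood at -0.23 and cytosolic class II enzymes at -0.33.

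No mitochondrial synthetase transcript passed the test. Of 16 genes 0 were called in either direction by limma, against 17.5% of all tested genes lower and 6.92% higher. At an unadjusted p under 0.05 there was 1 lower (Iars2) and 0 higher, against 29.5% and 10.4% of all tested genes. Both gelADSC libraries lay below both controls for 6 genes (37.5%, against 50.5% of all tested genes) and above them for 1 (against 19.2%), and the groups overlapped for 9. The median log2 change was -0.13, or 0.12 relative to all tested genes. This small negative median is not a stable direction, since it was 0.14 after median ratio scaling, 0.12 after quantile normalization and 0.039 when gelADSC library 2 was left out. The 16 genes summed to 109 and 140 FPKM in gelADSC and 158 and 136 FPKM in control. All 16 were higher in gelADSC library 3 than in gelADSC library 2, with a median gap of 0.28 on the log2 scale. In control, 1 of 16 was higher in library 3 than in library 1, with a median gap of -0.22. Of all 11070 tested genes, 7392 were higher in gelADSC library 3 and 2559 in control library 3. Mitochondrial class I enzymes (9 genes) had a median log2 change of -0.35 and class II enzymes (7 genes) one of -0.05, or 0.20 relative to all tested genes. The gaps between libraries of a group were wider than the median difference between the groups over the 16 genes.

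Iars2, the mitochondrial isoleucyl enzyme, was the most abundant of the set and had the lowest log2 change. It read 18.7 and 25.0 FPKM in gelADSC and 38.5 and 29.5 FPKM in control, without overlap (log2 change -0.62, 95% interval -1.13 to -0.11, adjusted p = 0.076). In GENCODE M21 its exons share 30.5% of their bases with those of Rab3gap2 on the opposite strand, and Rab3gap2 read 3.62 and 4.45 FPKM in gelADSC and 6.08 and 4.73 FPKM in control. Lars2, the leucyl enzyme, was next in level with 20.3 and 24.7 FPKM in gelADSC and 23.4 and 26.5 FPKM in control, and its groups overlapped.

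Another 5 mitochondrial genes were lower without overlap, and Mars2 and Wars2 among them were low in level. Mars2, the methionyl enzyme, read 1.01 and 1.26 FPKM in gelADSC and 2.19 and 1.84 FPKM in control (log2 change -0.50, adjusted p = 0.132). Wars2, the tryptophanyl enzyme, read 1.11 and 1.45 FPKM in gelADSC and 2.14 and 1.67 FPKM in control (log2 change -0.35, adjusted p = 0.284). At such levels the added pseudocount of 1 FPKM makes the log2 change smaller than the ratio of the values, which was 0.562 for Mars2 and 0.671 for Wars2. Vars2, the valyl enzyme, read 4.72 and 6.24 FPKM in gelADSC and 9.01 and 6.57 FPKM in control (log2 change -0.44, adjusted p = 0.196). Rars2, the arginyl enzyme, read 6.23 and 6.78 FPKM in gelADSC and 9.51 and 7.93 FPKM in control (log2 change -0.37, adjusted p = 0.206), and Nars2, the asparaginyl enzyme, 3.62 and 4.59 FPKM in gelADSC and 5.32 and 4.96 FPKM in control (log2 change -0.27, adjusted p = 0.365).

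Fars2, which charges phenylalanine in mitochondria as a single chain, was the gene with higher values and no overlap. It read 11.0 and 12.0 FPKM in gelADSC and 10.5 and 10.3 FPKM in control, and the gap was small (log2 change 0.13, 95% interval -0.30 to 0.56). The 8 genes Aars2, Cars2, Ears2, Hars2, Pars2, Sars2, Tars2 and Yars2 overlapped between groups, as did Lars2, and the log2 changes of these 8 ran from -0.17 in Yars2 to 0.09 in Cars2. Pars2, the prolyl enzyme, was the lowest of all members with 0.967 and 1.76 FPKM in gelADSC and 1.39 and 1.00 FPKM in control. Intervals of this width, for example -0.51 to 0.50 for Hars2, leave room for changes of moderate size in either direction.

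Within each group most members shifted the same way between libraries, as most tested genes did. In gelADSC, 33 of the 36 genes were higher in library 3 than in library 2, against 7392 of all 11070 tested genes. Their median gap was 0.27 on the log2 scale, against 0.10 over all tested genes. In control, 2 of the 36 were higher in library 3 than in library 1, against 2559 of the 11070. The median gap there was -0.29, against -0.21 over all tested genes. The control libraries differed by a median of -0.37 for the cytosolic genes alone. That gap compares with the -0.61 found between the groups for the same genes.

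Setting the enzymes of both compartments side by side gave 17 pairs for the same amino acid, with Eprs paired to both Ears2 and Pars2, and Fars2 to both Farsa and Farsb. In 12 of the 17 the cytosolic gene had the lower log2 change. The ratio of cytosolic to mitochondrial FPKM within a library does not depend on a single scaling factor per library. It was lower in both gelADSC libraries than in both controls for 9 pairs, higher for 2, and overlapping for 6. The pairs share libraries and some share a gene, so these counts are a description.

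The serine pair differed widely, with Sars at 2.86 and 2.09 times the level of Sars2 in gelADSC and 5.34 and 3.69 times in control. Farsb was at 0.929 and 1.01 times Fars2 in gelADSC and 2.43 and 1.53 times in control. Hars was at 2.93 and 2.78 times Hars2 in gelADSC and 4.28 and 4.05 times in control. In each of the 3 pairs the higher gelADSC ratio was below the lower control ratio, and the controls of the serine and phenylalanine pairs spread widely. The alanine pair went the other way, with Aars at 13.8 and 10.1 times Aars2 in gelADSC and 8.69 and 9.53 times in control, and so did Mars at 20.5 and 21.2 times Mars2 in gelADSC and 15.4 and 14.4 times in control. Isoleucine and leucine were the amino acids for which the mitochondrial gene was the more abundant in every library, with Iars at 0.668 and 0.532 times Iars2 in gelADSC and 0.688 and 0.663 times in control.

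**Figure D3:**
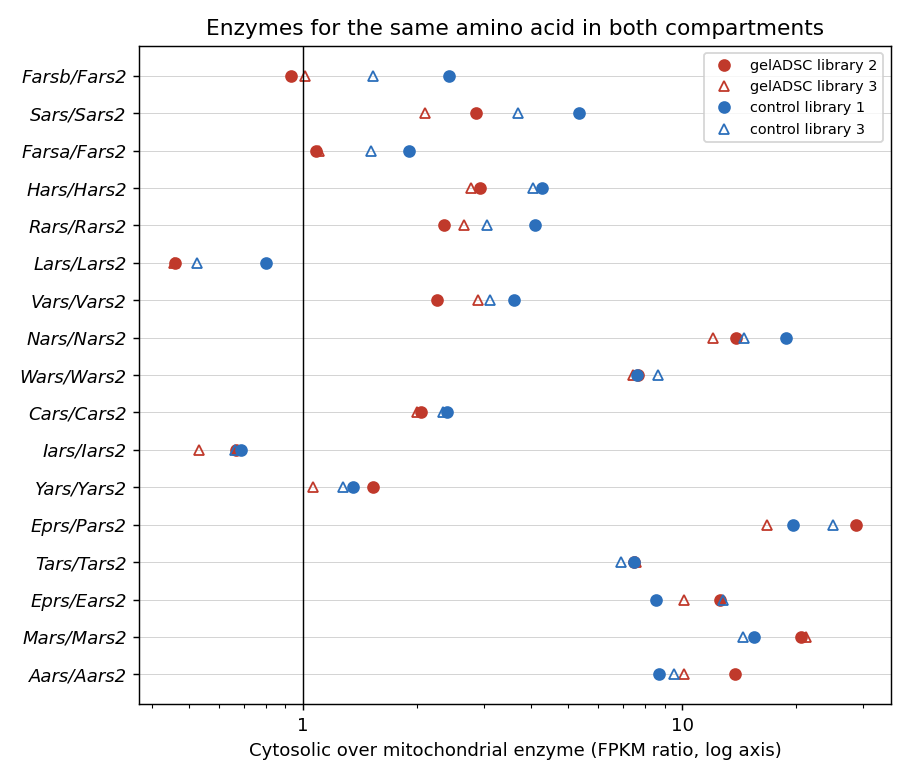
Ratio of the cytosolic to the mitochondrial enzyme for the same amino acid in each library (FPKM ratio, log axis), with red marks for gelADSC and blue marks for control and the vertical line at equal levels. Pairs are ordered by the difference of their log2 changes. Farsb/Fars2 and Sars/Sars2 at the top had lower ratios in gelADSC, and Aars/Aars2 and Mars/Mars2 at the bottom had higher ones.

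Transcripts of the scaffold proteins of the multi-synthetase complex were also lower, and all 3 fell, against 17.5% of all tested genes called lower. Aimp1, whose cleaved form is also a cytokine, read 13.3 and 17.5 FPKM in gelADSC and 32.2 and 22.8 FPKM in control (log2 change -0.79, adjusted p = 0.0407). Aimp2 read 8.54 and 9.84 FPKM in gelADSC and 20.8 and 13.7 FPKM in control (log2 change -0.82, adjusted p = 0.0371). Eef1e1, also called AIMP3, read 7.53 and 9.22 FPKM in gelADSC and 16.2 and 13.7 FPKM in control (log2 change -0.77, adjusted p = 0.0294). All 3 were lower without overlap, against 50.5% of all tested genes. Leaving out control library 1 or gelADSC library 2, using either scaling, or using no filter each took the count of 3 to 0, and it was 2 without control library 3, where Eef1e1 lost its call (0.0527).

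Of 4 genes that complete mitochondrial charging, 0 passed the limma test in either direction, with 1 lower and 1 higher at an unadjusted p under 0.05. Over all tested genes 17.5% were called lower and 6.92% higher. At an unadjusted p under 0.05 these shares were 29.5% and 10.4%. Mitochondria charge glutamine indirectly, and the amidotransferase that converts the misacylated transfer RNA is made of Gatb, Gatc and Qrsl1. Gatb read 9.82 and 12.7 FPKM in gelADSC and 7.42 and 7.90 FPKM in control (log2 change 0.49, adjusted p = 0.115), and was called higher after median ratio scaling (adjusted p = 0.0426) or quantile normalization (adjusted p = 0.0394). Qrsl1 read 2.48 and 3.15 FPKM in gelADSC and 5.60 and 3.73 FPKM in control (log2 change -0.56, adjusted p = 0.124). The subunits thus had values apart in opposite directions, while Gatc read 11.8 and 12.4 FPKM in gelADSC and 11.8 and 12.0 FPKM in control. Mtfmt, which formylates the initiator methionyl-tRNA, read 3.43 and 4.45 FPKM in gelADSC and 7.08 and 5.03 FPKM in control (log2 change -0.51, adjusted p = 0.144).

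Genes around charging in the cytosol and nucleus had few calls. The share called lower was 20.0% of the genes that clear mischarged products, 5.26% of processing genes and 14.3% of RNA polymerase III genes. Over all tested genes it was 17.5%. Among 5 genes that clear mischarged products, 1 fell, the D-aminoacyl-tRNA deacylase Dtd1, with 4.76 and 3.37 FPKM in gelADSC and 10.4 and 6.50 FPKM in control (adjusted p = 0.0417). Among 19 tested genes of transfer RNA processing, splicing and export, 1 fell, the ribonuclease P subunit Pop1 (log2 change -0.79, adjusted p = 0.0327), and the list's median was -0.32. Xpot, the nuclear export receptor for transfer RNA, read 12.4 and 13.2 FPKM in gelADSC and 19.3 and 13.6 FPKM in control (adjusted p = 0.305). Among 21 genes of RNA polymerase III and its factors, which make transfer RNA, 3 fell, the polymerase subunits Polr3d (log2 change -1.11) and Polr3g (-0.99) and the TFIIIC subunit Gtf3c6 (-0.69), and the list's median of -0.22 was close to that of all tested genes. With no filter, or without control library 1, none of these 5 calls was kept, and after either scaling Polr3g alone was. The scalings also gave 1 gene called higher in the processing list, and a pseudocount of 5 lost the call of Dtd1. The call of Dtd1 was also lost without gelADSC library 3, that of Pop1 without control library 3 or gelADSC library 2, that of Polr3g without gelADSC library 3, and that of Gtf3c6 without any 1 of the 4 libraries.

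Of the 6 factors that deliver charged transfer RNA to the ribosome, 2 subunits of the cytosolic exchange factor fell. That is 33.3%, against 17.5% of all tested genes called lower. Eef1g read 49.99 and 56.1 FPKM in gelADSC and 117 and 84.3 FPKM in control (log2 change -0.90, adjusted p = 0.0205). Eef1b2 read 59.9 and 68.5 FPKM in gelADSC and 136 and 88.2 FPKM in control (log2 change -0.77, adjusted p = 0.0491). Leaving out control library 1 or gelADSC library 2, using no filter, or using either scaling each took this count to 0. With a pseudocount of 5 or with no trend it was 1, so that Eef1b2 lost its call in 7 of 10 alternatives and Eef1g in 5. Of 7 mitochondrial translation factors 0 were called by limma and 0 had an unadjusted p under 0.05, with a median log2 change of -0.06. Over all tested genes 17.5% were called lower and 6.92% higher, and 29.5% and 10.4% had an unadjusted p under 0.05.

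The integrated stress response list, through which amino acid shortage is known to reach the synthetase genes, is also the longest list here. Of 29 tested genes of 33 listed, 15 fell (against 17.5% of all tested genes) and 0 rose, with a median log2 change of -1.10. The count was 6 lower and 1 higher after median ratio scaling, 9 lower after quantile normalization and 5 lower with no filter. Over all tested genes the count called lower also dropped, from 1936 to 932, 999 and 730 under these settings. Atf4 itself read 61.5 and 58.1 FPKM in gelADSC and 139 and 86.4 FPKM in control (log2 change -0.86, adjusted p = 0.0354). ATF4 is regulated mainly at translation, which RNA levels do not measure. Psat1, an enzyme of serine synthesis, read 1.10 and 2.05 FPKM in gelADSC and 42.8 and 17.4 FPKM in control (log2 change -3.49, adjusted p = 0.00074), and Asns, asparagine synthetase, read 5.81 and 1.65 FPKM in gelADSC and 34.3 and 17.6 FPKM in control (log2 change -2.59, adjusted p = 0.00502). Trib3, a pseudokinase induced by ATF4, read 0.939 and 1.14 FPKM in gelADSC and 17.9 and 5.33 FPKM in control (log2 change -2.43, adjusted p = 0.00638), and the hormone gene Fgf21 had the largest decrease of the list with a log2 change of -3.98. In each of these genes control library 1 stood well above control library 3. Ddit3, which encodes CHOP, read 8.61 and 9.80 FPKM in gelADSC and 14.5 and 7.10 FPKM in control and overlapped (adjusted p = 0.762). Its exons share a few bases with those of Mars on the opposite strand, 2.29% of the exon bases of Mars. Without control library 1 the list had 5 called lower, and the calls of Atf4 (0.181) and Asns (0.112) were lost while those of Psat1, Trib3 and Fgf21 were kept. Atf4 and Asns also lost their calls after either scaling and with no filter, and Trib3 with no filter (0.0675), while Psat1 and Fgf21 kept theirs in all 10 alternatives.

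**Figure D4:**
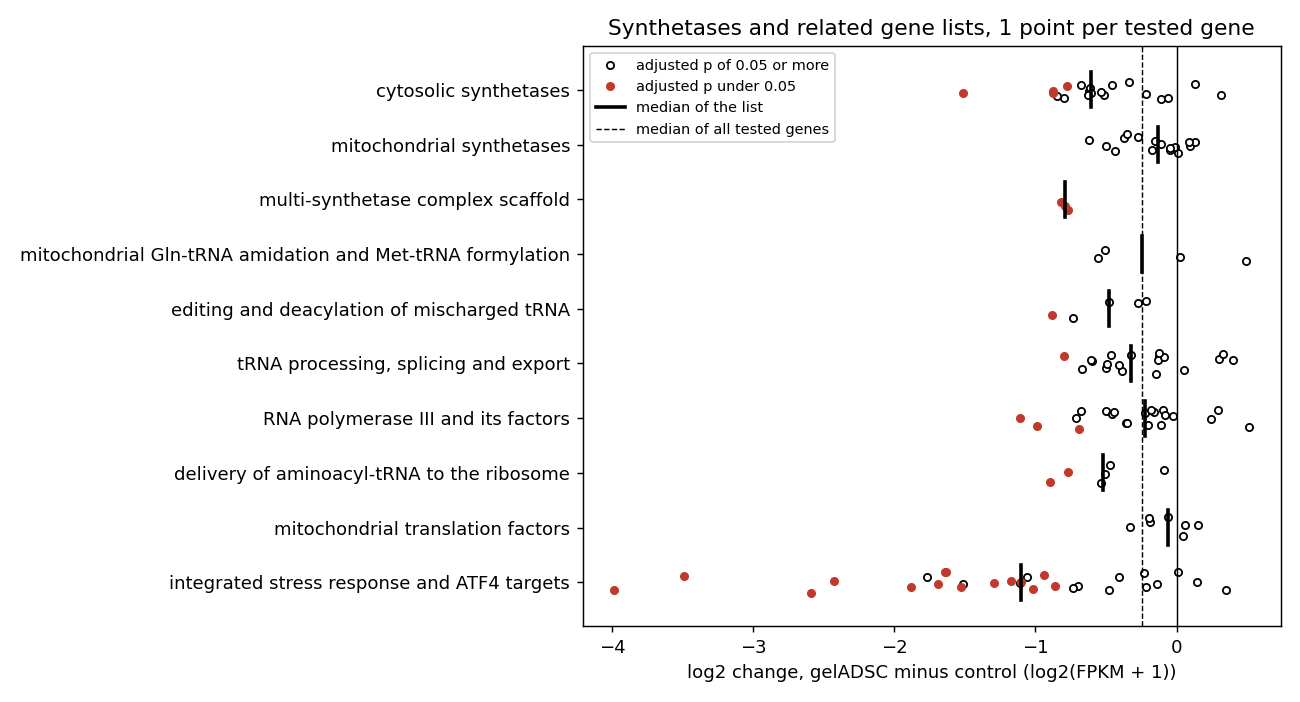
Log2 change, gelADSC minus control, of every tested gene in the synthetase sets and the related lists, with 1 point per gene, a thick bar for each list's median and a dashed line for the median of all tested genes at -0.25. Filled points have an adjusted p under 0.05. The stress response list has its median at -1.10, the cytosolic synthetases at -0.61 and the mitochondrial synthetases at -0.13.

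Some members share exon bases with another gene in GENCODE M21, and whether the authors counted reads by strand is not given in the sources used here. This held for 10 members, 3 of them by more than 10% of their exon bases. Besides Iars2, these were Aars, which shares 23.1% with Exosc6 on the same strand, and Farsb, which shares 11.3% with Sgpp2 on the opposite strand. Exosc6 read 3.03 and 4.83 FPKM in gelADSC and 5.98 and 5.41 FPKM in control, far below Aars, and Sgpp2 read at most 0.138 FPKM in any library. The values of these 3 synthetases are uncertain to the extent that shared reads were assigned to them.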

How the data were processed

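The table deposited by the authors holds 1 value per mouse gene symbol and library. No unit stands in its header. The authors' values were read as FPKM because they are not whole numbers, sum to between 495761 and 517719 per library and move in steps that depend on the gene. Trimmomatic 0.38, TopHat2 2.1.1 and Cufflinks 2.2.1 are named, without roles, per the submitters' processing notes, which give a human build although the symbols are of mouse. The annotation is not given in the sources used here. Libraries are called by the number in their column, since the sample titles number each group differently.

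The test covered genes averaging 1 FPKM or more over the libraries, on log2(FPKM + 1), as deposited with no further scaling, with limma 3.58.1 in R 4.3.3 (mean-variance trend, two-sided, Benjamini-Hochberg adjustment over all 11070 tested genes, threshold 0.05). The fits were also run on simulated data, drawn with independent noise and no shift of all genes. That run does not check them under the shift of all genes seen here. Fold changes on this scale understate the change of low genes. Depth was estimated from the steps of values under 0.2 FPKM and GENCODE M21 lengths of single-transcript genes, and is only rough. Alternatives were other pseudocounts, no filter, 2 other scalings, no trend, and each library left out. Named genes were all members and, in each related list, up to 3 of the largest called changes plus Aimp1, Aimp2, Eef1e1, Gatb, Gatc, Qrsl1, Mtfmt, Atf4, Ddit3, Asns, Trib3 and Xpot. The members and lists were chosen with earlier results of these data known.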

Additional observations from a re-analysis of the deposited data

How the results depend on the processing

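Over the 10 alternatives the count of cytosolic synthetases called lower moved from 4 to 7 with a pseudocount of 0.1, and to 1 with no filter, after median ratio scaling or after quantile normalization. With 1 library left out it ranged from 0 to 6. In 0 alternatives was a cytosolic or mitochondrial gene called higher, or a mitochondrial gene called lower. The median log2 change of the cytosolic set was -0.33 after median ratio scaling and -0.30 after quantile normalization, and stayed negative in each alternative. The mitochondrial median changed sign after median ratio scaling (0.14), after quantile normalization (0.12) and over the left-out libraries, where it ran from -0.28 to 0.039. Relative to all tested genes it was 0.12 as reported and -0.070 with no filter. Dropping the filter leaves each member's own log2 change as it was, so only the median of all tested genes moved. With no filter, medians relative to all tested genes were -0.42 for the ATF4 targets, -0.52 for cytosolic class II and 0.014 for mitochondrial class II enzymes, and the last ranged from 0.091 to 0.39 with 1 library left out. Among all tested genes, 952 were higher and 932 lower after median ratio scaling (929 and 999 after quantile normalization), against 766 and 1936 as deposited, and 303 and 331 without control library 1. No paired analysis was possible because the columns share a single number between the groups, and these numbers differ from those in the sample titles. A left-out library leaves its group with 1, which is then assumed to vary like the other group.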
